A study of Homo sapiens with 32 samples.

Results

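*ARC*, *VGF*, *HOMER1*, *NPAS4*, *BDNF*, and *NPTX1* are 6 genes best known for being switched on in neurons that have just fired. They were looked up by symbol among the 25498 genes listed for LNCaP cells, a prostate cancer line established from a lymph node metastasis, and all 6 were found. The 6 genes were selected on their neuronal role with the ligand responses of these libraries (the log2 fold changes of EGF and NRG-1 versus CSS) already known, so their levels after EGF or NRG-1 against untreated cells are a description and carry no test. The same holds for EGF against NRG-1, which is the difference of those responses. A total of 5 of the 6 passed the filter for low counts (at least 5 counts in at least 3 of the 32 libraries), as did 16995 genes in all, and *NPAS4* did not.

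The libraries formed 8 groups of 4, each group with replicates 1 and 2 in batch 1 and again in batch 2. LNCaP cells of the FBS group were grown in medium with 10% fetal bovine serum. Cells of the CSS group had their medium replaced by one with charcoal-stripped serum, in which most steroid hormones are depleted, and received no ligand. The remaining 6 groups were in CSS as well and received 100 ng/mL of EGF (epidermal growth factor, a ligand of EGFR) or 100 ng/mL of NRG-1 (neuregulin-1, a ligand of HER3 and HER4) for 5 minutes, 1 hour, or 4 hours. All groups are the same cell line without a genetic change, so a single tumor's genome stands behind every value. The labels number the libraries as biological replicates without naming separate cultures, and the P values therefore measure the spread between these libraries.

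In neurons, synaptic input and calcium entry activate kinases, among them ERK, and these act on transcription factors already in the nucleus, including SRF with its ELK partners, CREB, and MEF2. The first genes to respond encode further transcription factors, such as the FOS, EGR, and NR4A families and NPAS4, together with a few effectors that need no new protein for their induction, such as ARC. Later genes encode secreted and synaptic proteins, among them VGF, BDNF, and neuronal pentraxins. Growth factor receptors feed into the same ERK branch in many other cell types. The comparison of the 8 groups asks which of these genes respond in prostate epithelial cells.

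The promoters of 4 of the 6 genes were in the RefSeq set of promoter windows (GRCh38.p14), which counts bases from 250 before to 50 after each start site. *ARC* and *NPTX1* were not in that set. The 250 bases before the start are shown for *VGF* and *HOMER1*, which were both higher after the ligands, and for *NPAS4*, which was almost unread. They lie at chr7:101165570-101165819 (minus strand), chr5:79514135-79514384 (minus strand), and chr11:66420754-66421003 (plus strand). Capitals mark the letters of motifs searched on both strands. In *VGF* they are a cAMP response element (CRE, TGACGTCA), an E-box (CACGTG), and an EGR motif (GCGNGGGCG), in *HOMER1* an EGR motif read on the opposite strand, and in *NPAS4* a pair of CRE half-sites (TGACG), the first of them on the opposite strand.
VGF: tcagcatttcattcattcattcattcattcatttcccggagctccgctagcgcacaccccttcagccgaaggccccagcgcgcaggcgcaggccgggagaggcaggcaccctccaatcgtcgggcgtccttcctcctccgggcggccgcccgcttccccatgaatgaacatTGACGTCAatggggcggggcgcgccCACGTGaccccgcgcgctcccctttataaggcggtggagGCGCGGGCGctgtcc
HOMER1: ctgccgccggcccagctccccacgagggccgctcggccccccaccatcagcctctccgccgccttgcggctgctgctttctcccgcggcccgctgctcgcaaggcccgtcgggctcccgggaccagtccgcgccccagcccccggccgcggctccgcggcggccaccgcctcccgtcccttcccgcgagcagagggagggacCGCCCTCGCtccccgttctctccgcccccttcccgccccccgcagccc
NPAS4: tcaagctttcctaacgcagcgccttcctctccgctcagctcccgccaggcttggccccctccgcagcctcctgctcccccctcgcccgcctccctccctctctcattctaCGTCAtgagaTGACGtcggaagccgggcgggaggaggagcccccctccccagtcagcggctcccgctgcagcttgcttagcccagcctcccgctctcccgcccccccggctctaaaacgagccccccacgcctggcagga

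The *VGF* window held its CRE at bases -79 to -72 from the start, the E-box at -54 to -49, and the EGR motif at -15 to -7. The full CRE occurred in 1.85% of all 35116 promoter windows of the same length, the E-box in 7.26%, and the EGR motif in 9.43%. *HOMER1* held the EGR motif at -48 to -40. The half-sites of *NPAS4* lay at -140 to -136 and at -130 to -126 in its upstream window, and TGACG occurred in 24.6% of all windows, where it also counts each full CRE. The 5 windows of *BDNF* held 1 E-box, 1 EGR motif, and 1 half-site between them. None of the 9 windows of these 4 genes held an AP-1 motif (TGANTCA, in 7.71% of all windows) or a CArG box (the SRF motif, in 1.29%). These matches describe letters in a window and were not measured as binding.

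Sequencing depth was high and even, with 63822654 to 92401724 expected counts per library (median 77866194). One count corresponded to 0.0103 to 0.0168 CPM (counts per 1000000 counts of the library, scaled by TMM), so that levels below about 0.1 CPM rest on a handful of reads. Prostate luminal markers were plentiful, and their 8 genes summed to between 4589 CPM in CSS and 6231 CPM in FBS. Of 8 neuron markers, *SNAP25*, *STMN2*, and *ELAVL4* were at 0 in at least 1 library of every group and failed the filter, whereas *TUBB3* and *MAP2*, which epithelial cells can also express, made up nearly all of the neuron marker sum. The summed neuron markers were 25.6 CPM in CSS, 54.7 CPM after 4 hours of EGF, and 41.2 CPM after 4 hours of NRG-1. Without *TUBB3* and *MAP2*, the sum was 0.167 CPM in CSS, 0.187 CPM after 4 hours of EGF, and 0.180 CPM after 4 hours of NRG-1. *TUBB3* (40.7 ± 2.13 against 17.0 ± 1.52 CPM, SD, n = 4) and *SYN1* (at most 17 counts in a library) were the 2 neuron markers called by edgeR after 4 hours of EGF (9.56% of all tested genes were called), and their part in the values below was not tested. In bulk RNA, a change in the share of cells that express a gene cannot be told apart from a change in RNA per cell.

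The genes differed widely in level when compared per length, as transcripts per 1000000 (TPM). In CSS, *HOMER1* stood at 14.3 ± 0.806 TPM (SD, n = 4), *VGF* at 0.647 ± 0.0842 TPM, *ARC* at 0.08 ± 0.0183 TPM, *BDNF* at 0.04 ± 0.0216 TPM, and *NPTX1* at 0.0175 ± 0.0126 TPM. *NPAS4* was listed at 0 TPM in all 4 CSS libraries. After 4 hours of EGF, *HOMER1* was at 52.3 ± 6.08 TPM, *VGF* at 15.7 ± 2.82 TPM, *ARC* at 2.37 ± 0.553 TPM, and *NPTX1* at 0.378 ± 0.0826 TPM. The order from *HOMER1* to *VGF* to *ARC* was thus the same in both groups, with *NPTX1* moving ahead of *BDNF*. At 1 hour of EGF, *ARC* (5.61 ± 0.210 TPM) lay just above *VGF* (4.50 ± 0.879 TPM).

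**Figure D1:**
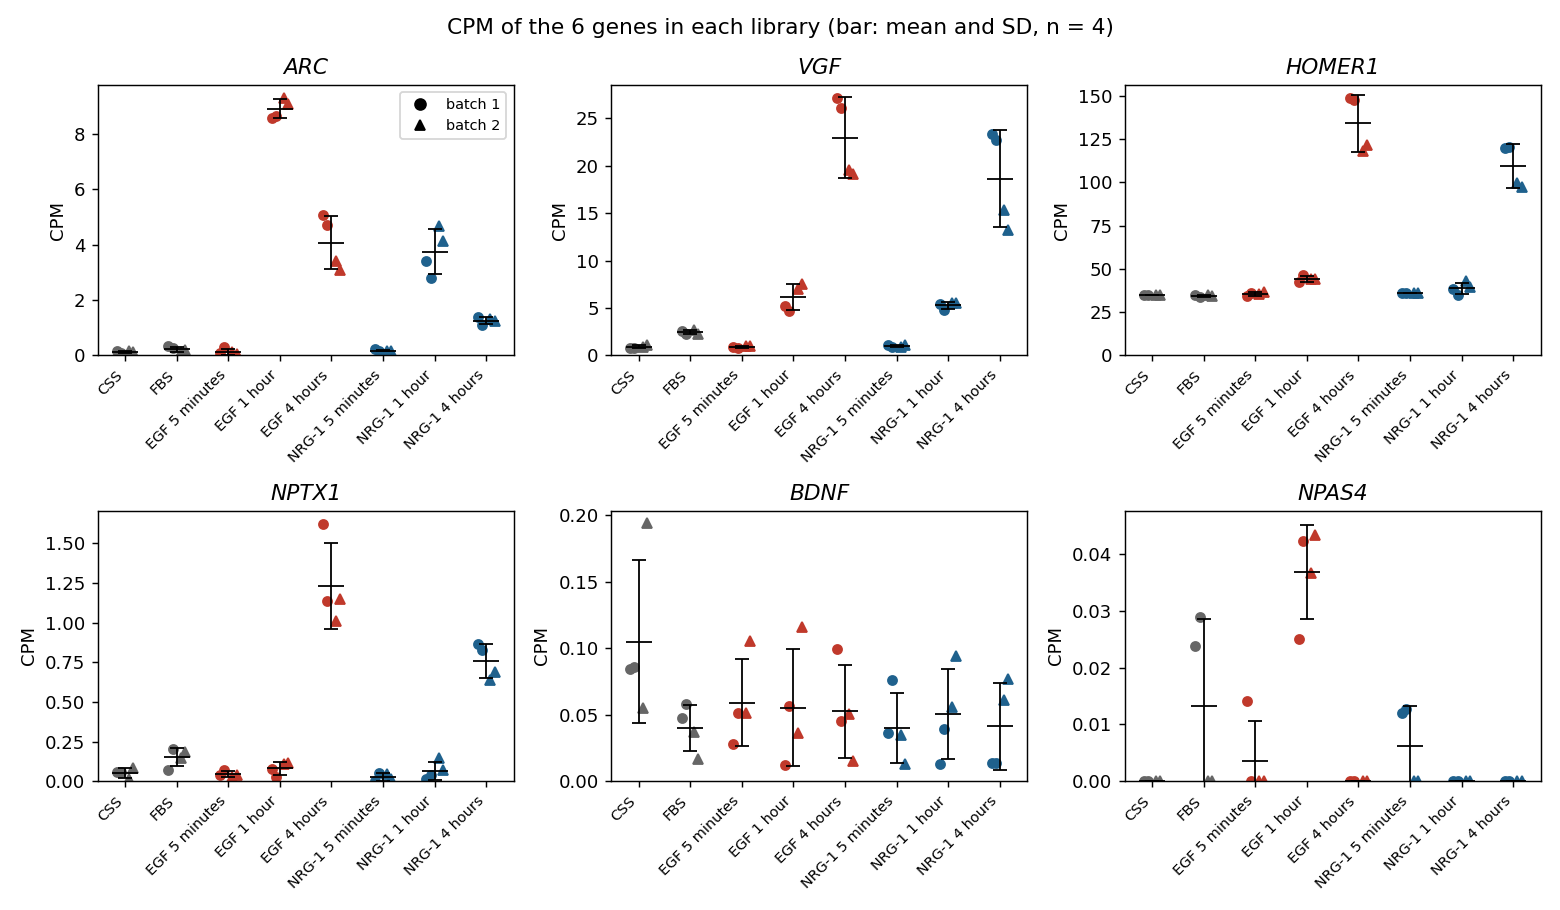
Level of each gene in every library, in CPM (linear axes from 0), by group; circles are batch 1, triangles batch 2, and the bars give the mean and SD of 4 libraries. *ARC* peaks at 1 hour of EGF (8.90 CPM), *VGF*, *HOMER1*, and *NPTX1* peak at 4 hours, and *BDNF* and *NPAS4* reach at most 0.194 CPM.

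*ARC* encodes a capsid-forming protein that controls the traffic of AMPA receptors at synapses. It was barely read in CSS, with 13, 7, 13, and 9 counts (0.128 ± 0.0272 CPM, SD, n = 4). After 1 hour of EGF the 4 libraries held 8.57, 8.64, 9.29, and 9.08 CPM, that is 613 to 761 counts. After 4 hours of EGF they held 5.06, 4.69, 3.40, and 3.09 CPM. All libraries of both EGF groups lay far above all libraries of CSS, and the 1 hour libraries lay above every 4 hour library. NRG-1 gave 3.40, 2.80, 4.67, and 4.12 CPM at 1 hour and 1.40, 1.08, 1.33, and 1.23 CPM at 4 hours. NRG-1 libraries at both times also lay above CSS without overlap, with the 1 hour libraries again the higher. Relative to CSS, EGF came to a log2 fold change of 6.09 (SE 0.27) at 1 hour and 4.95 (SE 0.28) at 4 hours, and NRG-1 to 4.85 (SE 0.28) and 3.27 (SE 0.31).

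At 5 minutes *ARC* showed no shift beyond the spread of its libraries. EGF for 5 minutes gave 0.0846, 0.290, 0.116, and 0.0396 CPM, and the second of these values came from 28 counts in batch 1 replicate 2. NRG-1 for 5 minutes gave 0.156 to 0.216 CPM. Both groups overlapped CSS, with log2 fold changes of 0.12 (SE 0.43) with EGF and 0.46 (SE 0.41) with NRG-1. The EGF value was -0.66 without the library of 28 counts. By mean CPM the groups ran from EGF at 1 hour to EGF at 4 hours, NRG-1 at 1 hour, NRG-1 at 4 hours, and FBS. The neighbors EGF at 4 hours and NRG-1 at 1 hour overlapped in range, as did FBS, both 5 minute groups, and CSS.

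*VGF* encodes a secreted neuropeptide precursor of dense-core granules, induced in neurons by nerve growth factor and BDNF. In CSS it held 0.762, 0.816, 0.929, and 1.13 CPM. After 1 hour it held 5.27, 4.68, 7.00, and 7.58 CPM with EGF and 5.40, 4.77, 5.48, and 5.49 CPM with NRG-1. The 2 ligands gave overlapping levels at 1 hour, and no treated library came near CSS. At 4 hours the EGF libraries held 27.1, 26.1, 19.5, and 19.1 CPM, and the NRG-1 libraries held 23.4, 22.7, 15.3, and 13.2 CPM. Unlike *ARC*, *VGF* was higher at 4 hours than at 1 hour in every library, by a ratio of means of 3.75 with EGF and 3.53 with NRG-1. EGF against CSS thus gave log2 fold changes of 2.75 (SE 0.19) and 4.65 (SE 0.19) at the 2 times, and NRG-1 gave 2.53 (SE 0.19) and 4.35 (SE 0.19). At 5 minutes the levels (0.786 to 1.14 CPM over both ligands) overlapped those of CSS. Within the 4 hour groups, both batch 1 libraries exceeded both batch 2 libraries for either ligand.

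*HOMER1* encodes a scaffold that links metabotropic glutamate receptors to SHANK proteins and calcium stores in neurons. Neurons switch from its long forms to a short form on activity, and gene-level counts do not separate these forms. *HOMER1* was well expressed and even in CSS, at 34.8, 34.9, 34.7, and 35.2 CPM. After 1 hour of EGF it held 42.7, 46.6, 44.0, and 44.0 CPM, and after 1 hour of NRG-1 38.2, 34.9, 42.8, and 39.6 CPM. The EGF libraries lay above CSS without overlap, whereas 1 NRG-1 library fell inside the CSS range. At 5 minutes the EGF libraries (34.1 to 36.5 CPM) overlapped CSS, and the NRG-1 libraries (36.0 to 36.3 CPM) all lay above it, by a log2 fold change of 0.05 (SE 0.07). At 4 hours the levels were 149, 148, 118, and 122 CPM with EGF and 120, 121, 99.5, and 97.4 CPM with NRG-1. These were the highest of all groups, all above the 1 hour libraries, and batch 1 again lay above batch 2. On the log2 scale, EGF lay 0.35 (SE 0.07) above CSS at 1 hour and 1.94 (SE 0.07) above it at 4 hours, and NRG-1 lay 0.16 (SE 0.07) and 1.65 (SE 0.07) above it.

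*NPTX1* encodes neuronal pentraxin 1, a secreted protein that gathers AMPA receptors at synapses. CSS libraries held 5, 4, 1, and 7 counts. After 1 hour the counts were still 2 to 9 after EGF and 1 to 13 after NRG-1, and they overlapped CSS. After 4 hours of EGF the libraries held 114, 100, 80, and 75 counts (1.62, 1.14, 1.01, and 1.15 CPM), and after 4 hours of NRG-1 they held 65, 59, 42, and 45 counts (0.641 to 0.867 CPM). Both 4 hour groups stood clear of all other groups and of each other. The log2 fold change versus CSS was 4.50 (SE 0.39) with EGF and 3.81 (SE 0.41) with NRG-1 at 4 hours, against 0.64 (SE 0.58) and 0.40 (SE 0.59) at 1 hour.

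*NPAS4* encodes a transcription factor that in neurons answers to calcium entry rather than to growth factors. It had at most 3 counts in any library. All 4 libraries of EGF at 1 hour had reads (2, 3, 3, and 3 counts), whereas none was read in any library of CSS, EGF at 4 hours, NRG-1 at 1 hour, or NRG-1 at 4 hours. FBS had 4 counts in all, from its batch 1 libraries, EGF at 5 minutes had 1, and NRG-1 at 5 minutes had 2. A count of 0 allows up to 3 counts, which is 0.0310 to 0.0504 CPM in these libraries, and the EGF values lie at or under that limit. No fold is given for values this low, and *NPAS4* was not tested because it failed the filter. *BDNF*, the neurotrophin that signals through TRKB, held 1 to 16 counts in a library. CSS had the highest mean (7, 6, 5, and 16 counts, 0.105 ± 0.0612 CPM), and its largest library, batch 2 replicate 2, stood apart from the other 3. All other groups averaged 0.0399 to 0.0592 CPM and overlapped CSS. Its log2 fold change versus CSS lay between -1.35 (SE 0.59, NRG-1 at 4 hours) and -0.79 (SE 0.53, EGF at 5 minutes).

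A gene was called when its adjusted P value in edgeR was below 0.05 and its log2 fold change exceeded 1 in either direction. In the comparisons of ligand with CSS these counts follow from how the 6 genes were chosen, and nothing is read from them. *ARC* and *VGF* were the 2 of 5 tested genes called at 1 hour, both higher, with EGF (background 1.72% of all tested genes called, 1.46% called higher) and with NRG-1 (0.989% called, 0.806% called higher). *ARC*, *VGF*, *HOMER1*, and *NPTX1* were called at 4 hours, all 4 higher, with EGF (9.56% called, 5.86% called higher) and with NRG-1 (7.41% called, 4.87% called higher). At 5 minutes, 0 of the 5 tested genes were called by edgeR or DESeq2 with EGF (0.00588% of all genes called by edgeR) or NRG-1 (0% called by edgeR). *BDNF* with NRG-1 was the 1 gene of the 5 with an unadjusted P value below 0.05 at 5 minutes. The EGF and NRG-1 comparisons share the 4 CSS libraries, so that their values are not independent.

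**Figure D2:**
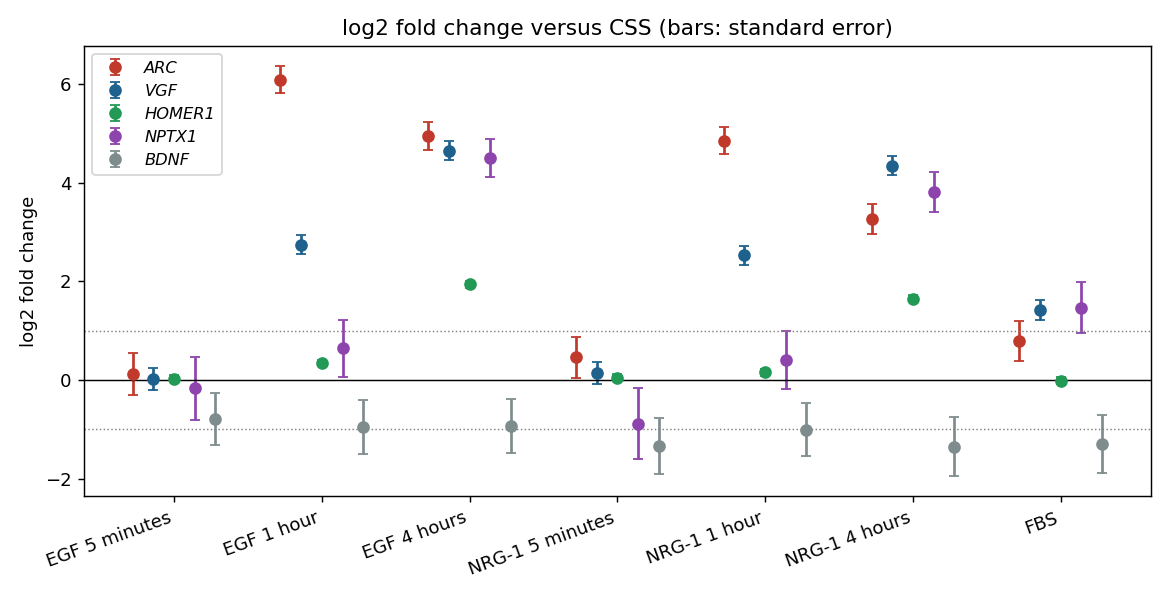
The log2 fold change versus CSS (vertical axis) of the 5 tested genes in each of 7 groups (horizontal axis), with bars of 1 standard error and dotted lines at 1 and -1. *ARC* is the highest at 1 hour with both ligands (6.09 and 4.85), *HOMER1* and *NPTX1* pass the upper line only at 4 hours among the ligand groups, and *BDNF* lies below 0 throughout.

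The comparison of EGF with NRG-1 asks whether the 2 ligands differ at a given time. Since it follows from the responses known when the 6 genes were chosen, its values are given without P values, and nothing is read from the calls. *ARC* was 2.36-fold higher with EGF than with NRG-1 at 1 hour (8.90 ± 0.347 against 3.75 ± 0.820 CPM, SD, n = 4, log2 fold change 1.24, SE 0.18). At 4 hours it was 3.21-fold higher (4.06 ± 0.960 against 1.26 ± 0.139 CPM, log2 fold change 1.68, SE 0.20). Every EGF library exceeded every NRG-1 library at both times. *ARC* was the 1 called gene of the 5 tested at 1 hour, where 0.171% of all tested genes were called and 0.171% called higher, and again at 4 hours, where 0.171% were called and 0.147% called higher. Within batches, the log2 fold change at 1 hour was 1.48 in batch 1 and 1.07 in batch 2, where it was not called. At 4 hours it was 1.97 in batch 1 and 1.36 in batch 2, and was called in both.

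*HOMER1* stood at 134 ± 16.5 CPM with EGF and 109 ± 12.7 CPM with NRG-1 at 4 hours, a log2 fold change of 0.29 (SE 0.07). The ranges of the 2 groups overlapped, while within each batch both EGF libraries exceeded both NRG-1 libraries. *VGF* had log2 fold changes of 0.22 (SE 0.16) at 1 hour and 0.30 (SE 0.15) at 4 hours, with overlapping ranges at both times. *NPTX1* at 4 hours had ranges that did not overlap and a log2 fold change of 0.69 (SE 0.27). *BDNF* lay 0.06 (SE 0.62) and 0.42 (SE 0.68) above NRG-1 at the 2 times, from a handful of reads, and its ranges overlapped. At 5 minutes 0 of the 5 genes were called by edgeR or DESeq2, none had an unadjusted P value below 0.05, and 0% of all genes were called by edgeR.

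**Figure D3:**
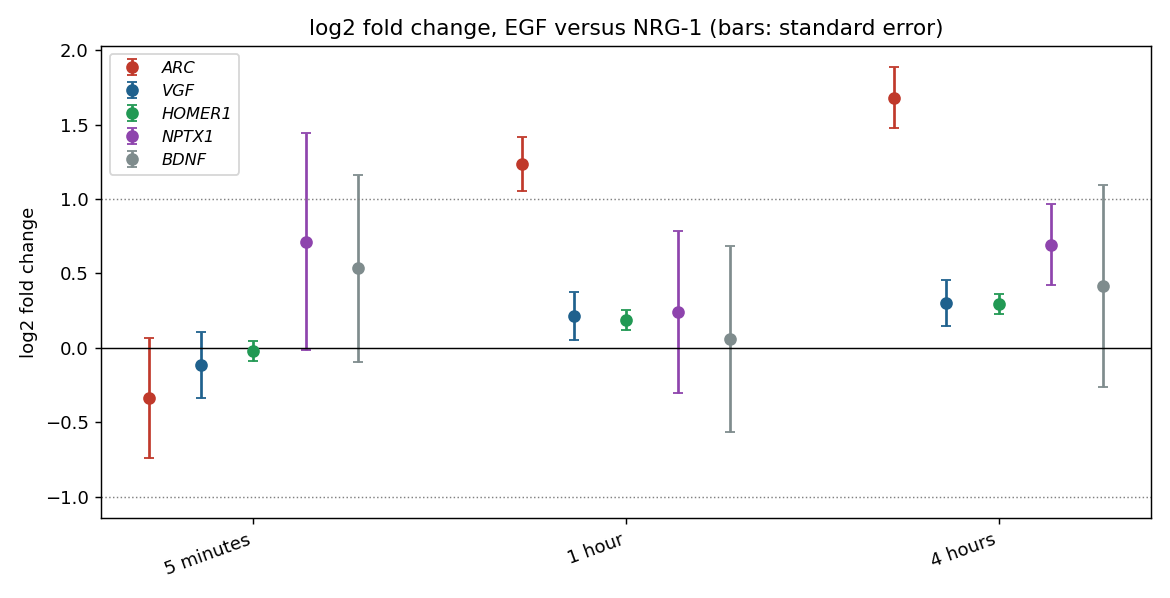
The log2 fold change of EGF versus NRG-1 (vertical axis) at 5 minutes, 1 hour, and 4 hours for the 5 tested genes, with bars of 1 standard error and dotted lines at 1 and -1. *ARC* lies above the upper line at 1 hour (1.24) and 4 hours (1.68), and the other 4 genes lie between the dotted lines at all 3 times.

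The comparison of FBS with CSS asks what full serum adds to stripped serum in the absence of added ligand. It uses the same CSS libraries as the ligand responses known when the 6 genes were chosen. Its P values are therefore not independent of that choice. *VGF* held 2.55, 2.27, 2.72, and 2.25 CPM in FBS, all above the 4 CSS libraries. It rose by 1.43 on the log2 scale (SE 0.20, edgeR adjusted P = 9.40e-07), or 2.69-fold, and passed in each batch alone. *NPTX1* held 6, 14, 12, and 11 counts in FBS against 1 to 7 in CSS, and the lowest FBS library overlapped CSS. Its log2 fold change was 1.47 (SE 0.52, edgeR adjusted P = 0.0190), which did not pass without FBS batch 1 replicate 2 (adjusted P = 0.0638) or without CSS batch 2 replicate 1 (adjusted P = 0.0833). It did not pass within batch 1 (1.14, edgeR adjusted P = 0.195) or batch 2 (1.80, adjusted P = 0.0501). These 2 genes were the called ones among the 5 tested, both higher, where 8.71% of all tested genes were called and 4.91% called higher.

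*ARC* in FBS held 28, 18, 9, and 11 counts, and its log2 fold change of 0.79 (SE 0.40) did not pass (edgeR adjusted P = 0.103). In batch 1 alone it was 1.19 (adjusted P = 0.0333), in batch 2 alone 0.18 (adjusted P = 0.797), and it passed when FBS batch 2 replicate 1 was left out (1.02, edgeR adjusted P = 0.0385). *HOMER1* differed between the media by less than the spread of the libraries, at 34.5 ± 0.499 CPM in FBS and 34.9 ± 0.210 CPM in CSS (log2 fold change -0.01, SE 0.07, edgeR adjusted P = 0.883). *BDNF* was at 1 to 4 counts in FBS and did not pass (-1.30, SE 0.58, edgeR adjusted P = 0.0621).

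Other genes of the neuronal activity program were taken as lists, which were also drawn up with earlier results of these libraries known. Their genes are therefore given by levels and by calls, set beside the share of all tested genes called, with no P values and no test of a list. The list of activity-regulated transcription factors held 18 genes, all tested. At 1 hour, 16 of 18 were called higher with EGF (1.46% of all tested genes called higher) and 15 of 18 with NRG-1 (0.806%), and 0 were called lower. The list medians on the log2 scale were 3.89 (EGF) and 3.40 (NRG-1), against -0.01 and -0.00446 over all tested genes. *EGR3* went from 0.126 ± 0.058 CPM in CSS to 502 ± 157 CPM after EGF and 217 ± 34.1 CPM after NRG-1. *EGR4* had 0 counts in all CSS libraries and 531 to 1430 counts with EGF, which is at least 295-fold higher against a floor of 3 counts per library, and with NRG-1 it was at least 131-fold higher. Both genes encode zinc finger factors of the EGR family. *JUN* and *NFIL3* were the 2 factors not called with EGF.

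At 4 hours fewer factors were called. With EGF, 8 of 18 were called higher and 1 lower (9.56% of all tested genes called, 5.86% higher), and with NRG-1 7 were called higher and 1 lower (7.41% called, 4.87% higher), with list medians of 0.73 and 0.56. With *EGR4* at its bound, or at 0 where it was under the floor, the medians were 0.73 and 0.38. *EGR1* was still at 563 ± 94.1 CPM with EGF and 65.7 ± 9.28 CPM with NRG-1, against 1.26 ± 0.0942 CPM in CSS. *EGR2*, also called, lay 5.19 above CSS on the log2 scale with NRG-1 (SE 0.53), at 1.23 ± 0.226 against 0.0353 ± 0.0189 CPM. No CSS library held more than 4 counts of *EGR2*, near the floor of 3 counts, so this fold is imprecise. *NR4A2*, an orphan nuclear receptor, was the 1 factor called lower than CSS, at 0.349 ± 0.103 CPM with EGF and 0.420 ± 0.115 CPM with NRG-1, against 0.935 ± 0.184 CPM. *ATF3*, *FOSL2*, *NFIL3*, and *PER1* also lay below CSS with EGF, by log2 fold changes of -0.91 (SE 0.17), -0.71 (SE 0.13), -0.31 (SE 0.07), and -0.38 (SE 0.13), and did not pass the limit on fold. At 5 minutes *EGR1* was the 1 factor called with EGF (7.74 ± 6.65 against 1.26 ± 0.0942 CPM), and it was not called without CSS batch 2 replicate 1. The share of all tested genes called at 5 minutes was 0.00588% with EGF and 0% with NRG-1. With NRG-1 0 were called by edgeR, 1 by DESeq2, and 3 had an unadjusted P value below 0.05. In FBS, 0 were called higher and 3 lower (*FOSL2*, *NR4A2*, and *NR4A3*), where 8.71% of all tested genes were called and 4.91% higher. Without CSS batch 2 replicate 1 the FBS count was 1.

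Between EGF and NRG-1 at 1 hour, 7 of the 18 factors were called, all higher with EGF (*ATF3*, *EGR2*, *EGR3*, *EGR4*, *FOSB*, *NR4A1*, and *NR4A3*), against 0.171% of all tested genes. Without the limit on fold 12 factors passed, with *FOSL2*, *JUN*, *KLF4*, *MAFF*, and *NFIL3* added, also higher with EGF. Of the called differences that of *FOSB* was the largest, 149 ± 44.3 against 49.3 ± 8.24 CPM (log2 fold change 1.59, SE 0.17). At 4 hours 6 factors were called, again all higher with EGF (*EGR1*, *EGR2*, *EGR3*, *EGR4*, *FOS*, and *JUNB*), against 0.147% of all tested genes called higher, and *IER2* and *KLF4* passed without the limit on fold. *EGR1* differed most, by 3.10 on the log2 scale (SE 0.33). *EGR2*, *EGR3*, and *EGR4* were on both lists, as *ARC* was called at both times.

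The list of activity effectors (22 genes, of which 21 were found and 18 tested) gave 6 called higher at 1 hour with EGF (*GADD45B*, *GEM*, *PLK2*, *RASD1*, *RGS2*, and *TIPARP*), against 1.46% of all tested genes, and 4 with NRG-1 (*GEM*, *PLK2*, *RASD1*, and *RGS2*), against 0.806%. *RASD1*, a small G protein, went from 3.82 ± 0.184 CPM in CSS to 79.2 ± 30.0 CPM after EGF and 37.5 ± 3.33 CPM after NRG-1. *RGS2*, which shortens G protein signaling, lay 2.99 (SE 0.22) and 1.72 (SE 0.22) above CSS on the log2 scale. Both were also called higher with EGF than with NRG-1 at 1 hour, the 2 called of 18 (0.171% of all tested genes called). Without EGF batch 1 replicate 1 or EGF batch 1 replicate 2, 1 was called. Between the ligands at 4 hours 0 were called by edgeR or DESeq2, with 6 at an unadjusted P value below 0.05. Of all tested genes, edgeR called 0.171% in that comparison. At 4 hours versus CSS, *GEM*, *NPTX2*, *PLK2*, and *RGS2* were called higher with EGF (5.86% of all tested genes called higher), and *GEM*, *NPTX2*, and *PLK2* with NRG-1 (4.87%). *NPTX2*, the sister gene of *NPTX1*, was at 4.27 ± 1.09 CPM with NRG-1 at 4 hours and 4.00 ± 1.01 CPM in FBS, against 1.57 ± 0.204 CPM in CSS. List medians at 1 hour were 0.14 (EGF) and 0.18 (NRG-1).

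**Figure D4:**
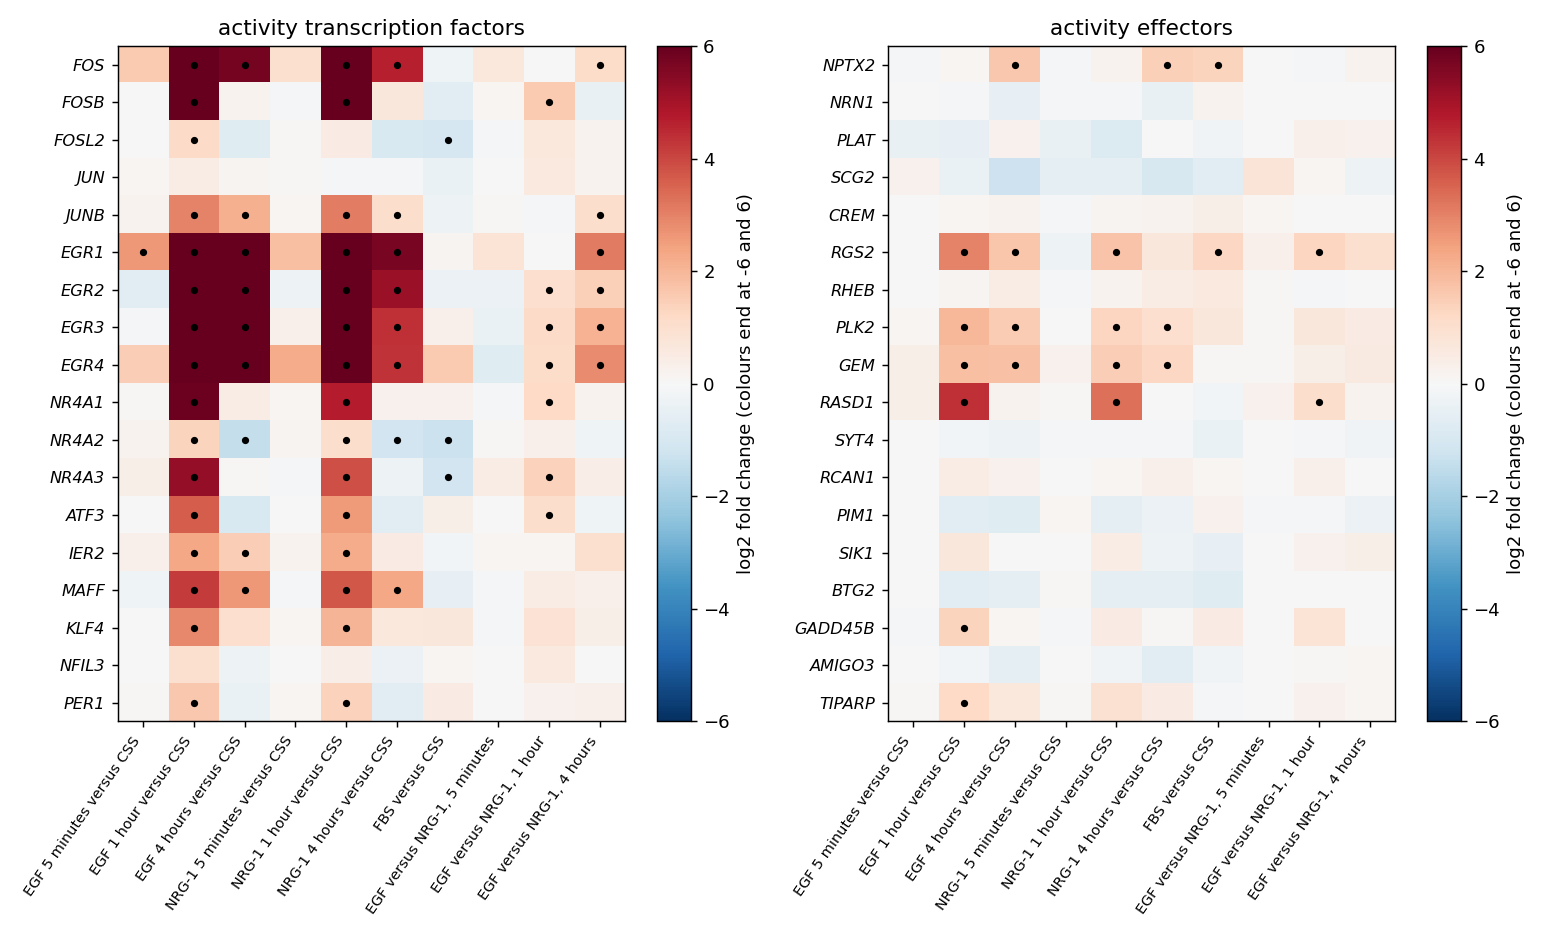
The log2 fold change (color, clipped at 6 in either direction) of activity-regulated transcription factors (left, 18 genes) and activity effectors (right, 18 tested genes) in 10 comparisons (columns); a black dot marks a called gene. The 1 hour columns versus CSS hold 16 and 15 dots on the left and 6 and 4 on the right.

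Of 21 postsynaptic partners of ARC, HOMER1, and NPTX1, 14 were tested. At 1 hour 0 were called by edgeR or DESeq2 with either ligand and 0 had an unadjusted P value below 0.05. Of all tested genes, edgeR called 1.72% (EGF) and 0.989% (NRG-1) at that time. The AMPA receptor genes *GRIA1*, *GRIA2*, *GRIA3*, and *GRIA4*, whose products ARC and NPTX1 handle in neurons, failed the filter. *HOMER2* was the 1 called of the 14 in FBS (73.4 ± 6.05 against 35.7 ± 3.03 CPM), where *HOMER1* was not called. There 8.71% of all tested genes were called.

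Of 10 genes of the neurotrophin system, 7 were tested and 0 were called versus CSS with either ligand at any time by edgeR or DESeq2. Of all tested genes, edgeR called 1.72% (EGF) and 0.989% (NRG-1) at 1 hour and 9.56% and 7.41% at 4 hours, and 0 of 7 is near these shares. At each time, 1 to 4 of the 7 had an unadjusted P value below 0.05. In FBS, *NTF3*, which encodes neurotrophin 3, was called higher (0.291 ± 0.0393 against 0.112 ± 0.0695 CPM), and *NGFR*, the p75 receptor, was called lower (0.195 ± 0.0392 against 0.524 ± 0.136 CPM), where 8.71% of all tested genes were called. Of 9 granule proteins that share the secretory route of VGF, 6 were tested. *SCG5* was called higher with EGF at 4 hours and in FBS from very few reads (5 to 10 and 5 to 9 counts, against 0 to 3 in CSS), and *CHGB* was called lower in FBS (1 count in all against 22). Of the 6 tested, 1 was thus called at 4 hours of EGF (9.56% of all tested genes called) and 2 in FBS (8.71%). At 5 minutes and 1 hour of EGF and at every time of NRG-1, 0 of the 6 were called by edgeR or DESeq2. There 0 to 2 had an unadjusted P value below 0.05. Convertase genes *PCSK1* and *PCSK2*, which cut neuropeptide precursors, failed the filter.

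All 16 upstream regulators on the list were tested. *SRF* was the 1 called at 1 hour with either ligand (1.72% of all tested genes called with EGF and 0.989% with NRG-1), at 247 ± 27.3 CPM with EGF and 170 ± 18.3 CPM with NRG-1, against 55.7 ± 2.88 CPM in CSS. With each ligand, 3 of the 16 had an unadjusted P value below 0.05 at 1 hour. *MEF2D* was not called, at 117 ± 13.0 CPM with EGF and 98.1 ± 14.2 CPM with NRG-1, against 59.8 ± 4.92 CPM in CSS. *RCOR1*, a corepressor that acts with REST, was the 1 called at 4 hours of EGF (162 ± 19.5 against 80.3 ± 4.69 CPM, log2 fold change 1.01, SE 0.12). There 9.56% of all tested genes were called. After 4 hours of NRG-1, *RCOR1* was at 148 ± 34.1 CPM, and 0 of the 16 were called (7.41% of all tested genes called). REST represses neuronal genes outside the nervous system, and its own gene was not called in any comparison. Among the prostate luminal markers, the keratin genes *KRT8* and *KRT18* were called higher at 4 hours of EGF, and *KRT8* also at 4 hours of NRG-1. *KRT8* was at 1550 ± 179 CPM after EGF and 1351 ± 210 CPM after NRG-1, against 499 ± 10.7 CPM in CSS. In FBS *KLK3* and *TMPRSS2* were called higher, with *KLK3* 3.33 above CSS on the log2 scale (SE 0.12) beside the higher *VGF*. Whether androgen in the serum has a part in the *VGF* value was not tested.

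For each tested gene, the 3 genes with the most similar pattern over the 32 libraries, after removal of batch means, were found by Pearson's r among tested genes whose log2 CPM averaged 0 or more. All points share the group structure, and r is given as a description. *ARC* was most like *MAP3K14* (r = 0.979), *DUSP10* (0.977), and *HBEGF* (0.972). *HBEGF*, itself a ligand of EGFR, went from 5.90 ± 0.695 CPM in CSS to 55.6 ± 3.72 CPM at 1 hour and 34.6 ± 6.00 CPM at 4 hours of EGF, and to 35.7 ± 1.64 and 19.5 ± 2.87 CPM with NRG-1. That is the order of groups seen for *ARC*, apart from the exchanged neighbors EGF at 4 hours and NRG-1 at 1 hour. *VGF* was most like *PBDC1* (r = 0.978), *SLC10A3* (0.977), and, with the lowest r of these 3, *ETF1*. *HOMER1* was most like *EGLN3* (r = 0.993), *AGFG1* (0.991), and *TDRP* (0.990). *EGLN3*, a prolyl hydroxylase, stood at 14.2 ± 0.213 CPM in CSS, 17.9 ± 1.03 CPM at 1 hour of EGF, and 115 ± 11.8 CPM at 4 hours, a late rise like that of *HOMER1*. *NPTX1* was most like *MALL* (r = 0.945), *EFHD2* (0.943), and *SMAGP* (0.942). *BDNF* had no close match, with *IYD* (r = 0.502), *TTC37* (0.499), and *MAP3K1* (0.468) at the top. Among the 5 genes themselves, *HOMER1* and *NPTX1* were the closest pair (r = 0.909), followed by *VGF* with *HOMER1* (0.874), and *ARC* was closest to *VGF* (0.784).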

How the data were processed

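Polyadenylated RNA of LNCaP cells was sequenced with strand recorded. The authors trimmed reads with Trimmomatic 0.36 and estimated gene values with RSEM around STAR 2.7.0f in stranded mode on hg19, per the submitters' processing notes and the methods. They deposited expected counts, which carry no scaling for depth, and TPM values, scaled by transcript length and library total. The files hold no coordinates, and promoter positions come from RefSeq on GRCh38.p14. Groups, batches, and replicates came from the sample labels.

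Expected counts (11.2% of values were not whole) were rounded. Genes reaching 5 counts in 3 or more libraries were tested in edgeR 4.0.16 (R 4.3.3) by the quasi-likelihood test with TMM scaling and terms for group and batch over all 32 libraries, with Benjamini-Hochberg adjustment within each comparison. The standard error is the log2 fold change divided by the root of F. Replicates differed by more than sampling noise (lowest chi-square per degree of freedom 6.50 over 48 pairs), and each library was counted once. Libraries with the same number deviated together from the means of their groups in 112 of 112 pairs (r from 0.133 to 0.571). The labels also give these libraries a shared batch, and pairing by number was not separated from batch. Alternatives were DESeq2 1.42.0 (Wald test, and its size factors in edgeR), other filters, no batch term, a replicate block, the compared groups alone, single batches, no fold limit, limma 3.58.1 on log2(TPM + 1) and log2(TPM + 0.1), and each library left out. The fits were tested on simulated counts.

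The 6 genes, the gene lists, and the tests were chosen with earlier results of these data known. P values are therefore printed only for the 6 genes in FBS versus CSS, and other comparisons are described. FBS versus CSS shares its CSS libraries with the ligand comparisons, so these P values are not independent of the choice either. Named genes were the 6 genes, the 3 genes most similar to each tested one, for each list and comparison the called genes with the 2 largest rises and the largest fall at 1 hour, 4 hours, and in FBS, every list gene called between EGF and NRG-1, and all called genes where 5 or fewer were called. *CCN1* was not matched by its symbol. Some genes that this rule names are not reported here.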

Additional observations from a re-analysis of the deposited data

Results flagged for a closer look

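Among 44 sets of 4 libraries (1 gene in 1 group) in which the CPM values were not all equal, 2 held a library far from the other 3, and chance alone flags about 1 in 20. For *VGF*, batch 1 replicate 2 of NRG-1 at 1 hour stood at 4.77 CPM, below the others at 5.40 to 5.49 CPM. *NPAS4* at 5 minutes of EGF was at 0.0141 CPM in batch 1 replicate 1, which is 1 count against 0 in the others. EGF and NRG-1, each against the same CSS libraries, differed past the threshold on the adjusted P value in edgeR for *ARC* at 1 hour (log2 fold change 1.24) and 4 hours (1.68) and for *HOMER1* at 4 hours (0.29), all of them a description, since the genes were chosen with both responses known.

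Genes of the activity lists called between the ligands, past the threshold on P and the limit on fold, were all higher with EGF. At 1 hour the log2 fold changes were 1.05 for *ATF3*, 1.03 for *EGR2*, 1.16 for *EGR3*, 1.10 for *EGR4*, 1.59 for *FOSB*, 1.20 for *NR4A1*, 1.38 for *NR4A3*, 1.07 for *RASD1*, and 1.27 for *RGS2*. At 4 hours they were 3.10 for *EGR1*, 1.44 for *EGR2*, 2.09 for *EGR3*, 2.85 for *EGR4* (0 to 4 counts a library with NRG-1), 1.11 for *FOS*, and 1.06 for *JUNB*. Past the threshold on P alone, and also higher with EGF, were *FOSL2* (0.62), *JUN* (0.57), *KLF4* (0.85), *MAFF* (0.45), *NFIL3* (0.59), *GADD45B* (0.84), *PLK2* (0.68), and *RCAN1* (0.30) at 1 hour, and *IER2* (0.98), *KLF4* (0.37), *PLK2* (0.50), and *RGS2* (0.96) at 4 hours.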

How the results depend on the processing

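Each result was recomputed under every alternative, which gave 1317 values, of which 1199 kept their direction and side of the threshold (or moved by less than the spread), and none turned direction past the threshold. With the replicate block no call changed in 70 values, and the *ARC* difference between EGF and NRG-1 at 1 hour was 1.24. On log2(TPM + pseudocount) the fold change of low genes is understated by construction. With a pseudocount of 1, *ARC* versus CSS was 2.61 (EGF, 1 hour), 1.63 (EGF, 4 hours), 1.55 (NRG-1, 1 hour), and 0.67 (NRG-1, 4 hours), and with 0.1 it was 4.99, 3.76, 3.65, and 2.19. *VGF* with a pseudocount of 1 was 1.73, 3.33, 1.49, and 3.00 in the same order, and with 0.1 it was 4.39 (EGF) and 4.04 (NRG-1) at 4 hours. *HOMER1* at 4 hours was 1.79 (EGF) and 1.48 (NRG-1) with 1, and 1.54 (NRG-1) with 0.1. *NPTX1* with 1 was 0.0141 (EGF, 1 hour), 0.44 (EGF, 4 hours), -0.0107 (NRG-1, 5 minutes), 0.27 (NRG-1, 4 hours), 0.0315 (FBS), and 0.16 (EGF against NRG-1, 4 hours, past the threshold on P), and with 0.1 it was 2.01, -0.0946 (NRG-1, 5 minutes), 1.49, and 0.25 (FBS). The *HOMER1* difference between ligands at 4 hours was 0.31 with 1 and 0.32 with 0.1, neither past the threshold.

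In batch 1 alone and batch 2 alone, *ARC* at 5 minutes of EGF was 0.61 and -0.70, *NPTX1* at 1 hour was -0.14 and 1.25 (EGF) and -1.11 and 1.19 (NRG-1), *VGF* at 4 hours was 5.07 and 4.25 (EGF) and 4.86 and 3.81 (NRG-1), *HOMER1* at 4 hours was 2.09 and 1.80 (EGF) and 1.78 and 1.51 (NRG-1), and *NPTX1* in FBS was 1.14 and 1.80. *ARC* in FBS passed in batch 1 alone (1.19) and with DESeq2 (0.79, adjusted P = 0.0430). Between the ligands, *ARC* at 1 hour did not pass in batch 2 (1.07), *HOMER1* at 1 hour passed in batch 1 (0.29), and *HOMER1* at 4 hours did not pass in batch 2 (0.29) or without a batch term (0.29). The causes were not tested, apart from the 2 libraries a group that a batch leaves.

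Called transcription factors numbered 2 (DESeq2) or 0 (compared groups alone, batch 2, or TPM + 1) at 5 minutes of EGF and 1 (DESeq2) at 5 minutes of NRG-1. Without the fold limit they numbered 15 at 4 hours with either ligand, 7 in FBS, and 12 between the ligands at 1 hour. With at least 10 counts in every library, which tests fewer genes, they were 5 (NRG-1, 4 hours) and 3 and 3 between the ligands at 1 and 4 hours. TPM + 1 gave 3 (NRG-1, 4 hours) and 1 (FBS). Batch 1 gave 1 (FBS), batch 2 gave 2 and 1 between the ligands at 1 and 4 hours, and no batch term gave 3 at 4 hours. Called effectors without the fold limit numbered 10 and 12 (EGF), 9 and 12 (NRG-1), 11 (FBS), and 5 and 2 between the ligands at 1 and 4 hours. TPM + 1 gave 2 (EGF, 4 hours), 2 and 0 (NRG-1, 1 and 4 hours), and 0 (FBS), and TPM + 0.1 gave 1 (NRG-1, 4 hours) and 1 (FBS). Between the ligands the effectors were 1 with the compared groups alone and 0 in batch 2 at 1 hour, and 1 in batch 1 at 4 hours.

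The *HOMER1* difference between the ligands at 4 hours was also lost without EGF batch 1 replicate 1, EGF batch 1 replicate 2, NRG-1 batch 2 replicate 1, or NRG-1 batch 2 replicate 2. With single libraries left out, the values ranged from -0.66 to 0.41 (*ARC*, EGF, 5 minutes), -0.32 to 0.75 (*NPTX1*, NRG-1, 1 hour), 0.51 to 1.02 (*ARC*, FBS), 1.10 to 1.81 (*NPTX1*, FBS), and 0.25 to 0.34 (*HOMER1*, between the ligands, 4 hours). Called factors ranged from 0 to 1 (EGF, 5 minutes) and 1 to 3 (FBS), and called effectors from 1 to 2 and 0 to 1 between the ligands at 1 and 4 hours. The factor call at 5 minutes was lost without CSS batch 2 replicate 1, which also took the FBS count to 1. Depth limits *NPAS4*, *BDNF*, and *NPTX1* outside the 4 hour groups, where a few counts decide the level.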

Other observations

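At 4 hours of EGF, the mean of batch 1 lay above that of batch 2 for *ARC* (4.87 against 3.25 CPM), *VGF* (26.6 against 19.3 CPM), *HOMER1* (148 against 120 CPM), and *NPTX1* (1.38 against 1.08 CPM). At 4 hours of NRG-1 the same held for *VGF* (23.0 against 14.3 CPM), *HOMER1* (120 against 98.4 CPM), and *NPTX1* (0.848 against 0.665 CPM), whereas *ARC* was at 1.24 against 1.28 CPM. At 1 hour batch 2 lay above batch 1 for *ARC* (8.61 in batch 1 against 9.19 CPM in batch 2 with EGF, 3.10 against 4.40 CPM with NRG-1) and for *VGF* (4.97 against 7.29 CPM with EGF, 5.08 against 5.48 CPM with NRG-1). *HOMER1* at 1 hour was at 44.6 in batch 1 against 44.0 CPM in batch 2 with EGF and at 36.6 against 41.2 CPM with NRG-1. In CSS the batches held 0.129 and 0.127 CPM of *ARC*, 0.789 and 1.03 CPM of *VGF*, and 34.8 and 34.9 CPM of *HOMER1*. Each batch holds 2 libraries of a group, and the difference between batches was not tested.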
